A study of Arabidopsis thaliana with 6 samples.

Results

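The difference between lsm1a lsm1b and Col-0 leaves of Arabidopsis thaliana was estimated across 3 stresses at once, by fitting 3 lsm1a lsm1b libraries and 3 Col-0 libraries with the stress as a block. All 6 libraries of the study entered the fit. Of 20297 genes listed in any stress, 16962 were listed in all 3 and form the set compared, and 16927 of these passed a filter on low counts and were tested, while 35 did not. The lsm1a lsm1b plants carry mutations in LSM1A and LSM1B, and Col-0 is the wild-type accession. Both genotypes were sampled as leaves at 2 weeks of age, with 1 RNA sequencing library per genotype and stress. For cold, plants on soil were held at 4 °C for 24 h. For drought, plants were moved from plates of growth medium to plates with 55% polyethylene glycol (PEG) for 10 h, and for salt to plates with 150 mM NaCl for 10 h. No unstressed group was analysed here. The labels give neither the lsm1a and lsm1b alleles nor the number of plants pooled in a library, and the 3 stress pairs stand in for replicates.

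LSM1 is the subunit that sets the cytoplasmic LSM1-7 ring apart from the nuclear LSM2-8 ring. The LSM1-7 ring binds the end of mRNAs that have lost their poly(A) tail and promotes removal of the cap by the decapping enzyme DCP2, after which the exonuclease XRN4 degrades the transcript in plants. In Arabidopsis LSM1 is encoded by LSM1A and LSM1B, and the double mutant is used as a plant without a working LSM1-7 ring. The comparison asks which transcripts differ between the genotypes whatever the stress, and which differ in the cold in another way than on the plates. Levels are given as counts or as CPM, which is counts scaled for library size with edgeR's TMM factors, in the order cold, PEG and NaCl. Log2 ratios are lsm1a lsm1b over Col-0, and a gene is called where its adjusted p is under 0.05.

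The summed counts of the libraries ran from 10289392 to 22639128. LSM1A (AT1G19120, at 6608115 to 6609369 of chromosome 1 in TAIR10) was counted 10, 26 and 12 times in lsm1a lsm1b under cold, PEG and NaCl, against 206, 246 and 273 times in Col-0. Every lsm1a lsm1b value lay far under every Col-0 value, and LSM1A was among the genes called (log2 ratio -3.94 ± 0.36, SE, edgeR adjusted p = 0.0465). Its span overlaps a neighbouring gene and an antisense RNA. LSM1B (AT3G14080) had 39, 98 and 439 counts in the lsm1a lsm1b libraries of cold, PEG and NaCl, against 152, 207 and 195 counts in the Col-0 libraries. The NaCl library labelled lsm1a lsm1b was thus the higher of its pair (log2 ratio 1.01), and those of cold (-1.75) and PEG (-0.99) were the lower. LSM1B was not called (-0.54 ± 0.57, edgeR adjusted p = 0.692). Without the alleles, the label does not say how much LSM1B RNA the mutant should hold. LSM1A, in contrast, was low in the NaCl library of lsm1a lsm1b too. All 6 leaf mesophyll markers were counted in every library, and their summed level ran from 4058 to 22154 CPM in lsm1a lsm1b and from 3591 to 26643 CPM in Col-0. Root markers, of which 4 of 11 were listed in cold and 8 or 9 on plates, summed to 190 CPM in lsm1a lsm1b and 146 CPM, with 1 at 0, in Col-0 in cold, to 1515 and 1529 CPM in PEG and to 1524 and 1933 CPM in NaCl. Seed markers, of which 10 of 15 were listed in NaCl, summed to 755 CPM in lsm1a lsm1b with none at 0, against 49.1 CPM in Col-0 with 2 at 0. In PEG, with 12 listed, they summed to 1190 CPM in lsm1a lsm1b and 677 CPM in Col-0, and in cold, with 1 listed, to 5.25 and 1.05 CPM. The part of these tissue markers in the genotype difference was not tested. In bulk leaf RNA fewer cells of a type and less RNA per cell cannot be told apart.

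Across the stresses 36 genes were called at an adjusted p under 0.05, which is 0.213% of the genes tested: 19 were higher in lsm1a lsm1b (0.112%) and 17 were lower (0.1%). The higher genes included 4 aquaporins, 2 AP2/ERF transcription factors, a gene of abscisic acid (ABA) synthesis, kinases and 6 genes with uncharacterised or hypothetical products. The lower genes included LSM1A, immune receptors of the NBS-LRR class, uncharacterised genes of chromosomes 1 and 5, some of them side by side, a polyamine transporter and an auxin repressor. All 36 had the same direction in all 3 pairs and were at least 2-fold apart in each pair. The test takes its spread from these same pairs and so favours genes whose pairs agree, which makes this agreement no separate evidence. In 4 of the 36 (SHY2, AT3G25640, MLP328 and AT5G24080) the ranges of the genotypes overlapped once the stresses were put together. In the others every lsm1a lsm1b library lay on one side of every Col-0 library. The fitted ratios were larger for the lower genes (median size 6.49 on the log2 scale) than for the higher genes (3.37). The adjusted p-values of the 36 lay between 0.0235 and 0.0481, so all sat close to the threshold, and 2651 genes had an unadjusted p under 0.05. Another test of the same 6 libraries, DESeq2, called 839 genes (4.96%), all 36 among them, and the edgeR fit called 826 genes (4.88%) without the cold pair, also with all 36, and 0 without the PEG pair or without the NaCl pair.

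**Figure D1:**
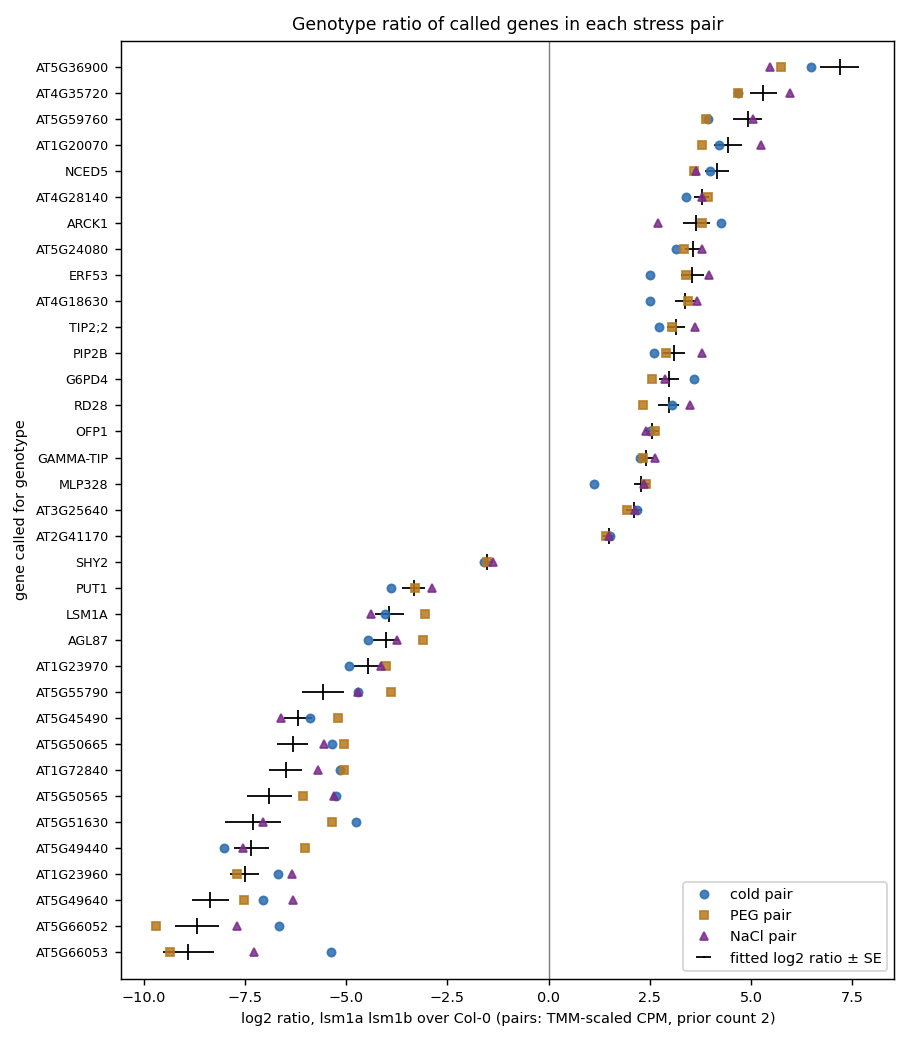
Log2 ratio of lsm1a lsm1b over Col-0 (horizontal axis) for 35 of the genes called across the stresses (vertical axis, by fitted ratio). Circles, squares and triangles are the cold, PEG and NaCl pairs (TMM-scaled CPM with a prior count of 2), and black ticks are the fitted ratio with its SE. No pair lies on the other side of 0 from its fit. Where 1 genotype has only a few counts, the prior count pulls the pair ratios toward 0, so fit and pairs can differ.

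Aquaporins, the channels that carry water across the tonoplast (TIP) and the plasma membrane (PIP), made up 4 of the 19 higher genes. TIP2;2 (AT4G17340, chromosome 4, 9699253 to 9700410) had 193, 123 and 402 CPM in lsm1a lsm1b leaves in cold, PEG and NaCl, against 28.8, 14.9 and 32.6 CPM in Col-0 leaves. It was higher by 3.14 ± 0.22 on the log2 scale (SE, edgeR adjusted p = 0.0302). PIP2B (AT2G37170, chromosome 2, 15613402 to 15614857) had 237, 400 and 1204 CPM in lsm1a lsm1b, against 38.9, 53.7 and 87.8 CPM in Col-0. In each of these genes the lowest lsm1a lsm1b library stood above the highest Col-0 library. RD28 (AT2G37180), the neighbour of PIP2B on chromosome 2, had 84.6, 109 and 463 CPM in lsm1a lsm1b, against 10.1, 21.8 and 41.1 CPM in Col-0. The annotated spans of PIP2B and RD28 are 93.7% identical over 1169 aligned bases, so reads could have been split or shared between them, and the ratios of 3.10 ± 0.28 and 2.96 ± 0.27 (edgeR adjusted p = 0.0465 for each) are uncertain to that degree. GAMMA-TIP (AT2G36830, chromosome 2, 15445425 to 15446574), a major tonoplast channel of vegetative tissue, had 839, 1455 and 3665 CPM in lsm1a lsm1b, against 177, 290 and 591 CPM in Col-0 (2.4 ± 0.19, edgeR adjusted p = 0.0351). All 4 genes reached their highest level in the salt-treated lsm1a lsm1b leaves.

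The family was then read as a whole, a set chosen after these calls had been seen. Of 36 genes whose symbol or synonym in the annotation names a PIP, TIP, NIP or SIP, 23 were tested. The 4 above were called higher and 0 were called lower, against 0.112% and 0.1% of all genes tested. In 13 of the 23 all 3 pairs were on the higher side, against 20.1% of all genes tested. In 1 all 3 were on the lower side, against 21.3% of all. The median log2 ratio over the 23 was 0.78, with a range from -0.58 (PIP2E) to 3.14 (TIP2;2). PIP1A came nearest to the threshold among those not called: 3196, 7307 and 15806 counts in lsm1a lsm1b against 1355, 1863 and 1443 counts in Col-0 (2.25 ± 0.39, edgeR adjusted p = 0.125). PIP2A (1.55 ± 0.36), TIP2 (1.38 ± 0.27), DELTA-TIP (1.27 ± 0.23) and PIP1B (1.12 ± 0.31) also had positive ratios in every pair and were not called by edgeR. DESeq2 called these and PIP1A higher (DESeq2 adjusted p from 2.74e-07 for PIP1A to 0.0122 for PIP1B). Over all 16927 genes tested it called 410 higher. PIP3 had ratios of 0.18 in cold, 0.13 in PEG and -0.12 in NaCl. PIP1;4 was at 0.66 ± 0.21, PIP1;5 at -0.54 ± 0.26 and SIP2;1 at -0.08 ± 0.14.

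ABA is made by cleavage of epoxycarotenoids in plastids, a step catalysed by the NCED enzymes. NCED5 (AT1G30100, chromosome 1, 10571340 to 10573365, a gene of 1 exon) had 127, 47 and 142 counts in lsm1a lsm1b in cold, PEG and NaCl, against 8, 2 and 8 counts in Col-0. Every lsm1a lsm1b count stood above every Col-0 count, and NCED5 was higher by 4.16 ± 0.30 on the log2 scale (edgeR adjusted p = 0.0315). It was the only called gene of 11 tested in ABA metabolism, against 0.213% of all genes tested. NCED3, the isoform that responds most to drought, had 807, 7202 and 3193 counts in lsm1a lsm1b against 203, 13091 and 3643 counts in Col-0, higher in cold and lower on both plates. Its genotype ratio across the stresses was 0.27 ± 0.62 (edgeR adjusted p = 0.867). The ABA hydroxylase gene CYP707A2 had ratios of 1.2, 0.94 and 0.77 in cold, PEG and NaCl, all on the higher side without passing the test (edgeR adjusted p = 0.170), while CYP707A3 ran from 0.77 in cold to -2.69 in NaCl. BGLU18, which frees ABA from its glucose ester, had ratios of -1.24, -2.52 and -3.06 (edgeR adjusted p = 0.118). None of the 27 tested ABA response genes was called, though at that share lists of these sizes would hold few or no calls in any case.

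Transcription factor genes of the AP2/ERF family formed another group among the higher genes. ERF53 (AT2G20880, chromosome 2, 8985973 to 8987263), an activator that binds the dehydration-responsive element, had 45, 329 and 1457 counts in lsm1a lsm1b, against 8, 31 and 82 counts in Col-0. AT4G28140 (chromosome 4, 13974691 to 13975908), annotated with the same DNA-binding domain, had 175, 579 and 2030 counts in lsm1a lsm1b, against 18, 38 and 131 counts in Col-0. Both genes consist of 1 exon, and in both the genotypes did not overlap once scaled for depth. The log2 ratios were 3.55 ± 0.29 for ERF53 (edgeR adjusted p = 0.0364) and 3.78 ± 0.19 for AT4G28140 (edgeR adjusted p = 0.0235). Ratios of ERF53 were 2.50 in cold, 3.39 in PEG and 3.96 in NaCl, and those of AT4G28140 were 3.38, 3.92 and 3.78. ERF53 was the only one called of the 20 tested genes of ethylene synthesis, signalling and ERF factors, against 0.213% of all genes tested. The median ratio of the 20 was 0.26 beside -0.00 over all genes tested.

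The 250 bases upstream of the annotated start are shown for ERF53 and AT4G28140, the called AP2/ERF genes, and for GAMMA-TIP and AT4G18630, as examples of higher genes with a dehydration-responsive (DRE) core and an ABA-responsive core. They were chosen after the matches were seen, and other called genes hold such matches too. They are RefSeq sequence of TAIR10.1, written 5′ to 3′ on the strand of the gene. Capitals mark matches on either strand to the DRE core CCGAC, the ABA-responsive core (ABRE) ACGTG, the W-box core TTGAC, which WRKY factors bind, and the evening element AAATATCT of clock-regulated and cold-regulated genes. ERF53 lies at chr2:8985709-8985958 on the plus strand, AT4G28140 at chr4:13975920-13976169 on the minus strand, GAMMA-TIP at chr2:15445044-15445293 on the plus strand and AT4G18630 at chr4:10256527-10256776 on the plus strand.
ERF53: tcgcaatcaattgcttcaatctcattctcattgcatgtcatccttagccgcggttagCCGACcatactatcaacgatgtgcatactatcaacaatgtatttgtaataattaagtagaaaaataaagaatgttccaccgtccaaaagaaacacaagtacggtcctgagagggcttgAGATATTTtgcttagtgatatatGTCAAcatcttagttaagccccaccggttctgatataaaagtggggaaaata
AT4G28140: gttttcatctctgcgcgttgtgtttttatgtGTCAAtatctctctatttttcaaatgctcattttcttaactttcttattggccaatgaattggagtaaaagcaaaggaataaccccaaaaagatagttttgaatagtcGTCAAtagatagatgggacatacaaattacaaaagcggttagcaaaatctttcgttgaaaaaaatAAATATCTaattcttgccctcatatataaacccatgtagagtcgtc
GAMMA-TIP: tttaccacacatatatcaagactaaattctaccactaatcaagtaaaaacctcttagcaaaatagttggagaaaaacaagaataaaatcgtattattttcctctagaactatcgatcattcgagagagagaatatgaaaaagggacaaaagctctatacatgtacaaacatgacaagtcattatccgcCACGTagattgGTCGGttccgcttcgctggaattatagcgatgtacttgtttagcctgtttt
AT4G18630: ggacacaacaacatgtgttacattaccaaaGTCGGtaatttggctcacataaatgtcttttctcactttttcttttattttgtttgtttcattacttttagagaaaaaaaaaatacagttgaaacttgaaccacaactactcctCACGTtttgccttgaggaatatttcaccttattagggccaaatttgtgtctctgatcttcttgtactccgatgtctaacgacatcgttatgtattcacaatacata

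Among the 19 higher genes, 6 had a DRE core in these 250 bases (31.6%), against 1 of the 17 lower genes (5.88%) and 13.5% of 16746 tested nuclear genes with a reference start. An ABRE core was found in 7 higher genes (36.8%), 2 lower genes (11.8%) and 3948 of the 16746. A W-box core was found in 7 higher genes (36.8%), 11 lower genes (64.7%) and 44.4% of all, and the GCC box GCCGCC in 1 higher gene (5.26%), 0 lower genes and 2.01% of all. Evening elements were found in 2 higher genes, ERF53 and AT4G28140, in 1 lower gene and in 5.08% of all. These are matches of letters in a fixed window and no test was made of the shares. The lower genes AT5G50565 and AT5G50665 have the same 250 bases, so the W-box core of this sequence is counted for both.

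Kinases and metabolic genes followed among the higher genes. ARCK1 (AT4G11890), a receptor-like cytosolic kinase known as inducible by ABA and osmotic stress, had 155, 26.2 and 15.7 CPM in lsm1a lsm1b, against 8.04, 1.81 and 2.33 CPM in Col-0 (3.64 ± 0.34, edgeR adjusted p = 0.0479). Its level was highest in the cold in both genotypes. AT5G24080, annotated as a protein kinase, had 40, 1927 and 1837 counts in lsm1a lsm1b, against 4, 199 and 118 counts in Col-0 (3.56 ± 0.19, edgeR adjusted p = 0.0235). Its cold library of lsm1a lsm1b was below both plate libraries of Col-0 in CPM, so levels overlapped between genotypes across the stresses, but not within a stress. G6PD4 (AT1G09420), annotated as a glucose-6-phosphate dehydrogenase, the entry enzyme of the oxidative pentose phosphate pathway, had 299, 1760 and 1223 counts in lsm1a lsm1b against 27, 315 and 149 counts in Col-0 (2.98 ± 0.25). OFP1 (AT5G01840), a transcriptional repressor of the OVATE family, had 104, 472 and 1179 counts in lsm1a lsm1b against 20, 78 and 199 counts in Col-0, and its pair ratios were 2.49, 2.64 and 2.4 (2.55 ± 0.17, edgeR adjusted p = 0.0255). MLP328, of the major latex protein family, was nearly silent in cold, with 9 counts in lsm1a lsm1b and 4 in Col-0, and had 4500 and 3886 counts on lsm1a lsm1b plates against 898 and 685 on Col-0 plates (2.29 ± 0.20). The smallest change of the higher genes was that of the F-box gene AT2G41170, with 382, 916 and 916 counts in lsm1a lsm1b against 151, 359 and 293 in Col-0 (1.48 ± 0.14).

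The steepest differences on the higher side came from little-studied genes. AT5G36900 (chromosome 5, 14546924 to 14548203), annotated as an uncharacterised protein, had 99, 166 and 215 counts in lsm1a lsm1b, against 0, 1 and 2 counts in Col-0. Summed over the libraries these are 480 against 3 counts, a 160-fold difference after scaling with a 95% counting interval (Clopper-Pearson) from 54.5-fold to 780-fold that covers counting error only. AT4G35720 (DUF241 domain) had 118, 1915 and 2718 counts in lsm1a lsm1b against 4, 77 and 37 counts in Col-0 (5.30 ± 0.34, edgeR adjusted p = 0.0250). AT5G59760 (DUF1635) had 43, 101 and 308 counts in lsm1a lsm1b against 2, 5 and 6 in Col-0 (4.91 ± 0.37). In each of these genes every lsm1a lsm1b library stood above every Col-0 library. In AT4G35720 the gap across stresses was small, with 12.2 CPM in lsm1a lsm1b in cold and 3.87 CPM in Col-0 in PEG. AT1G20070 had 3076, 2791 and 7699 counts in lsm1a lsm1b against 188, 211 and 180 in Col-0 (4.42 ± 0.34). But its whole span also lies inside an annotated long non-coding RNA, and without strand the 2 cannot be told apart. It overlaps the protein-coding gene AT1G20065 as well. AT4G18630 (DUF688) had 70, 538 and 1129 counts in lsm1a lsm1b against 13, 50 and 78 in Col-0 (3.37 ± 0.27), and AT3G25640 (DUF617, MIZU-KUSSEI-like) had 40, 487 and 492 against 9, 133 and 100 (2.11 ± 0.19).

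**Figure D2:**
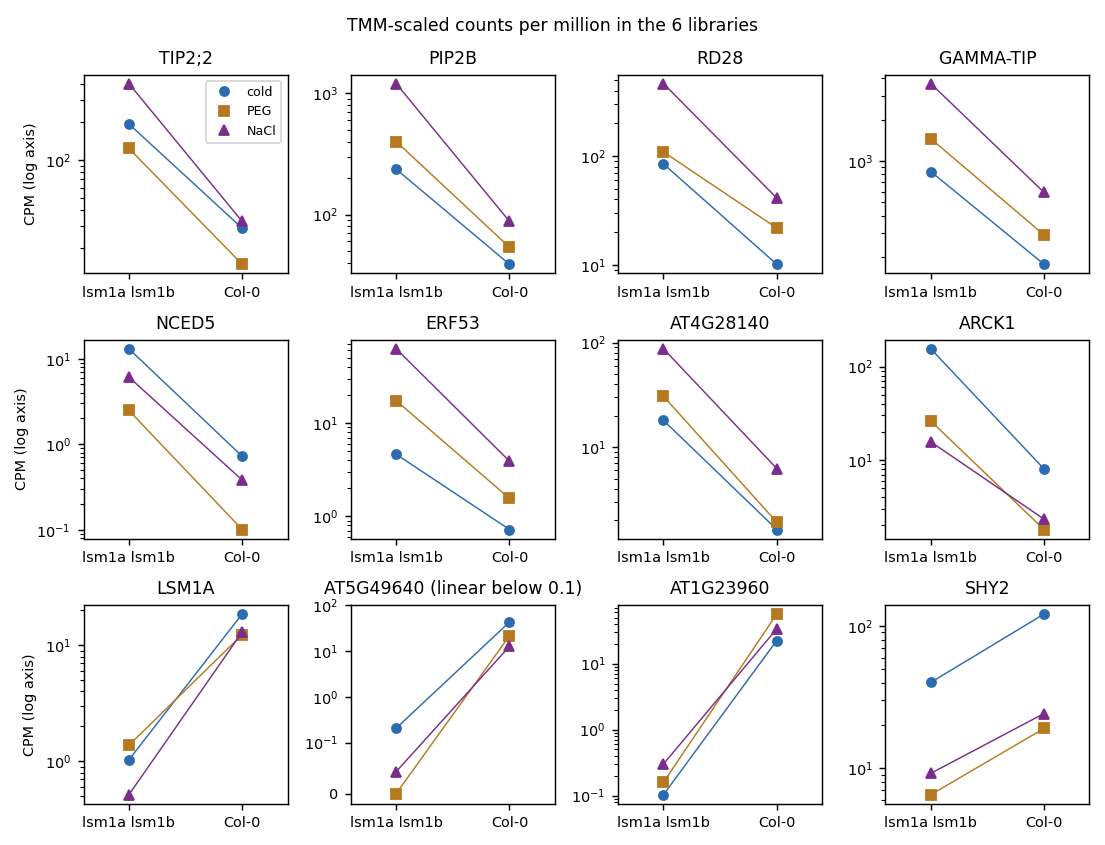
TMM-scaled CPM (vertical axes, logarithmic except below 0.1 in the panel of AT5G49640, whose PEG library of lsm1a lsm1b is at 0) in the lsm1a lsm1b library and the Col-0 library of each stress, joined by a line per pair. The first 8 panels are genes called higher and the last 4 genes called lower. All lines of a panel slope the same way, while the level also differs between stresses, as for GAMMA-TIP, from 839 to 3665 CPM in lsm1a lsm1b and from 177 to 591 CPM in Col-0.

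Among the lower genes, several were at or near 0 counts in every lsm1a lsm1b library. AT5G49640 (chromosome 5, 20151163 to 20151842) had 2, 0 and 1 counts in lsm1a lsm1b, against 469, 423 and 263 counts in Col-0, which is 384-fold lower with a counting interval from 131-fold to 1866-fold. The same bases are annotated as AT5G49645 as well. AT5G49440 (chromosome 5, 20048239 to 20049597) had 4, 14 and 13 counts in lsm1a lsm1b, against 1504, 1104 and 2644 counts in Col-0 (-7.34 ± 0.43, edgeR adjusted p = 0.0250). These 2 genes are 1-exon genes of unknown function that were well counted in all 3 Col-0 libraries. AT5G66053 and AT5G66052 overlap on opposite strands at the far end of chromosome 5 (26416126 to 26416924 for the longer), and had 2, 1 and 2 counts and 4, 7 and 10 counts in lsm1a lsm1b, against 146, 2173 and 657 counts and 586, 7955 and 2363 counts in Col-0. They had the lowest fitted ratios of the called genes, -8.89 ± 0.63 and -8.68 ± 0.55, and since strand is not given their reads cannot be assigned to 1 of them. AT5G66053 is shown because its whole model is 147 bases long (chr5:26416661-26416807, minus strand), with its first and last codon in capitals.
AT5G66053: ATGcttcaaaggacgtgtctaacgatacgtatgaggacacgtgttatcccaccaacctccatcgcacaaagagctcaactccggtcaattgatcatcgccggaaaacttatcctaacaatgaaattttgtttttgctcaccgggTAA

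Immune receptor genes of the NBS-LRR class, which detect pathogen effectors inside the cell, were among the lower genes. AT5G51630, of the TIR class, had 1, 2 and 0 counts in lsm1a lsm1b, against 64, 178 and 319 counts in Col-0, and AT1G72840, also of the TIR class, had 1, 2 and 1 counts against 84, 145 and 170. None of the 6 lsm1a lsm1b values of these receptors exceeded 2 counts. Of all 80 annotated NBS-LRR genes tested, 3 were called lower, against 0.1% of all genes tested, and 0 higher. DESeq2 called 17 lower and 4 higher, against 429 lower and 410 higher of all 16927 genes tested. The median ratio was -0.19, with medians of 0.05 in cold, -0.01 in PEG and -0.67 in NaCl. All 3 pairs were on the higher side for 14 of the 80, against 20.1% of all genes tested. They were on the lower side for 27, against 21.3% of all. By a rule of size alone (at least 2-fold in each of the 3 pairs, with no test), 11 of the 80 were lower (13.8%), against 0.738% of all genes tested, and 1 was higher, against 0.88% of all. The higher one, AT5G47260, had 49, 54 and 88 counts in lsm1a lsm1b and 0 in each Col-0 library. Of the 11, 7 lie on chromosome 1, where 29 were tested, 3 on chromosome 5, where 29 were tested, and 1 on chromosome 4, where 14 were tested. The list was drawn from the annotation with earlier results of these libraries known, so its direction is not independent evidence.

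Other lower genes included neighbours and copies. AT1G23960 and AT1G23970 (chromosome 1, 8478407 to 8480316 and 8482031 to 8483875), which share the DUF626 domain and lie 1715 bases apart, had 1, 3 and 7 counts and 1, 16 and 15 counts in lsm1a lsm1b, against 248, 1128 and 710 counts and 73, 305 and 280 counts in Col-0. AT5G50565 and AT5G50665 on chromosome 5 are identical over their whole spans, so their reads cannot be told apart. AT5G50565 had 2, 0 and 1 counts in lsm1a lsm1b against 134, 151 and 129 in Col-0, and AT5G50665 had 2, 2 and 1 against 144, 143 and 154. AT5G55790 (0, 2 and 2 counts in lsm1a lsm1b, 32, 63 and 108 in Col-0) is 95.2% identical to AT1G45163 over 538 bases and is uncertain for that reason. AT5G45490, a P-loop nucleoside triphosphatase, had 5, 12 and 11 counts in lsm1a lsm1b against 415, 549 and 1212 in Col-0 (-6.19 ± 0.34, edgeR adjusted p = 0.0235). The MADS-box gene AGL87 had 10, 9 and 12 counts in lsm1a lsm1b against 276, 99 and 174 in Col-0 (-4.01 ± 0.32).

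PUT1 and SHY2 had the smallest differences among the lower genes. PUT1 (AT1G31820), a transporter of polyamines, had 0.309, 2.38 and 2.54 CPM in lsm1a lsm1b, against 6.23, 24.7 and 19.6 CPM in Col-0 (-3.34 ± 0.29, edgeR adjusted p = 0.0413). SHY2 (AT1G04240, chromosome 1, 1128188 to 1129551), an Aux/IAA protein that represses auxin responses, had 40.1, 6.51 and 9.20 CPM in lsm1a lsm1b, against 121, 19.0 and 24.2 CPM in Col-0. Chilled leaves of both genotypes had the most SHY2, and the ratios of -1.60 in cold, -1.53 in PEG and -1.39 in NaCl differed little between stresses (-1.52 ± 0.14, edgeR adjusted p = 0.0465).

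The 17 lower genes were all on chromosome 1 (8 genes) or chromosome 5 (9 genes), which together carry 49.9% of the nuclear genes tested, whereas the 19 higher genes were on all 5 chromosomes (3, 6, 1, 5 and 4 genes on chromosomes 1 to 5). By the rule of size in every pair, 125 genes were lower, and 109 of them (87.2%) lay on those 2 chromosomes, against 92 of the 149 higher genes (61.7%). The share of tested genes that were lower by this rule was 1.51% on chromosome 1, 0.237% on chromosome 2, 0.270% on chromosome 3, 0.0391% on chromosome 4 and 1.06% on chromosome 5. By DESeq2, 286 of 429 lower genes (66.7%) were on chromosomes 1 and 5. In windows of 1 Mb, 70 of 121 held no gene lower by the rule of size, and 2 windows held the most. These were 8 to 9 Mb of chromosome 1, with 16 of 175 tested genes (9.14%), and 20 to 21 Mb of chromosome 5, with 13 of 163 (7.98%), against at most 5 genes in any window for the higher side. The chromosome 1 window held F-box genes with near-identical copies, and LpxC2 and LpxC3, for which the copy rule below found none. AT1G24996, with 5 copies, lies within the span of LpxC3. The F-box gene AT1G24800, with 5 copies, had 42, 14 and 14 counts in lsm1a lsm1b against 296, 54 and 43 in Col-0, and the window also held the DUF626 genes above. The chromosome 5 window held AT5G49440, AT5G49640 and AT5G51630, the copies SPL13A (-1.98 ± 0.32) and SPL13B (-1.86 ± 0.34), which encode regulators of phase change, and the fumarase gene FUM2, with 169, 151 and 510 counts in lsm1a lsm1b against 542, 1024 and 4352 in Col-0. None of these last 3 was called. A near-identical copy was sought elsewhere in the genome, with at least 90% identity over at least 50% of the span in 1 alignment. It was found for 30 of the 125 lower genes (24.0%) and for 4 of the 149 higher genes (2.68%). In the windows copies were found for 8 of 16 lower genes on chromosome 1 (50%) and 8 of 13 on chromosome 5 (61.5%). Reads of such copies may be shared, and some spans overlap, as AT5G50562 lies within AT5G50565. LSM1A itself lies outside both windows, at 6608115 to 6609369 of chromosome 1, the chromosome of the first window. LSM1B lies on chromosome 3 (4667365 to 4669194). The part of distance to these 2 loci was not tested.

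**Figure D3:**
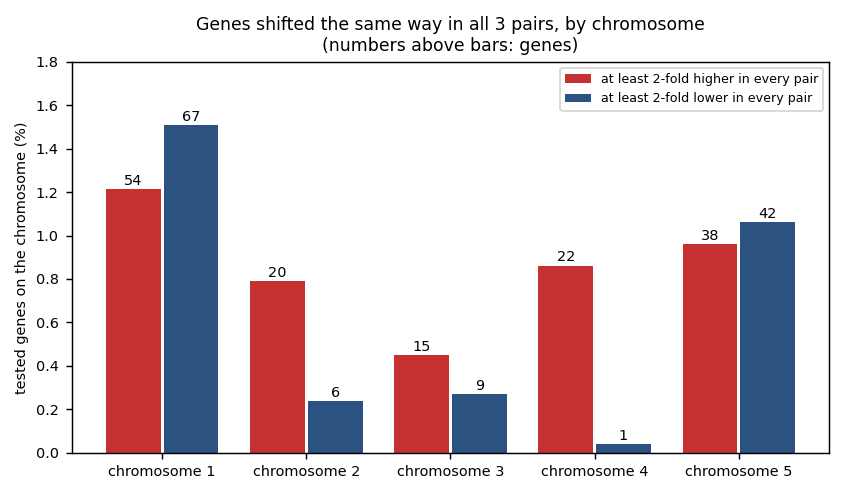
Percent of the tested genes of each chromosome (vertical axis) that were at least 2-fold higher (left bar) or at least 2-fold lower (right bar) in lsm1a lsm1b in each of the 3 pairs, with the number of genes above the bar. Lower genes reach 1.51% on chromosome 1 and 1.06% on chromosome 5, and are at most 0.27% on the other 3.

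The genes of mRNA decay were read as lists. Of 11 tested subunits of the LSM rings LSM1A alone was called. LSM3A had positive ratios in all pairs (0.72, 1.09 and 1.2 in cold, PEG and NaCl) without passing the test (1.01 ± 0.16, edgeR adjusted p = 0.110), and LSM7 (-0.04 ± 0.17), LSM6B (-0.12 ± 0.16) and LSM8 (0.26 ± 0.19) were near 0. None of the 14 tested genes of decapping and 5′-to-3′ decay was called: DCP2, the decapping enzyme, was at 0.04 ± 0.22, its activators DCP5, VCS and PAT1 (AT1G79090) at -0.27 ± 0.14, -0.24 ± 0.13 and -0.21 ± 0.12, and XRN4 at -0.10 ± 0.13. Their ratios ran from -0.27 (DCP5) to 0.26 (PAT1H2), and 0 of the 14 had an unadjusted p under 0.05, against 15.7% of all genes tested. Cytosolic ribosomal proteins had 0 of 286 called, with a median ratio of 0.10, and 0 of 29 photosynthesis genes and 0 of 16 cold response genes were called. With 0.213% called over all genes, lists of these sizes would hold few or no calls in any case. DESeq2 called 2 ribosomal protein genes higher and 4 lower, 3 photosynthesis genes lower and 1 cold response gene lower. Over all 16927 genes tested it called 410 higher and 429 lower.

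The 3 pairs did not move together to the same degree. Across the 16927 genes the log2 ratio of the NaCl pair correlated with that of the PEG pair at Pearson's r = 0.62 (Spearman's rho = 0.47), while cold correlated with PEG at r = 0.35 (rho = 0.22) and with NaCl at r = 0.34 (rho = 0.26). These are correlations across genes, which are not independent replicates, and no pair shares a library with another. Of 566 genes at least 2-fold apart in both plate pairs, 96.1% had the same direction, against 84.0% of 551 genes for cold and PEG and 78.3% of 649 genes for cold and NaCl. In all 3 pairs 3398 genes had a positive and 3605 a negative ratio, 41.4% of those tested. At least 2-fold higher in lsm1a lsm1b were 1420 genes in cold, 627 in PEG and 796 in NaCl, and 957, 619 and 710 were at least 2-fold lower.

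**Figure D4:**
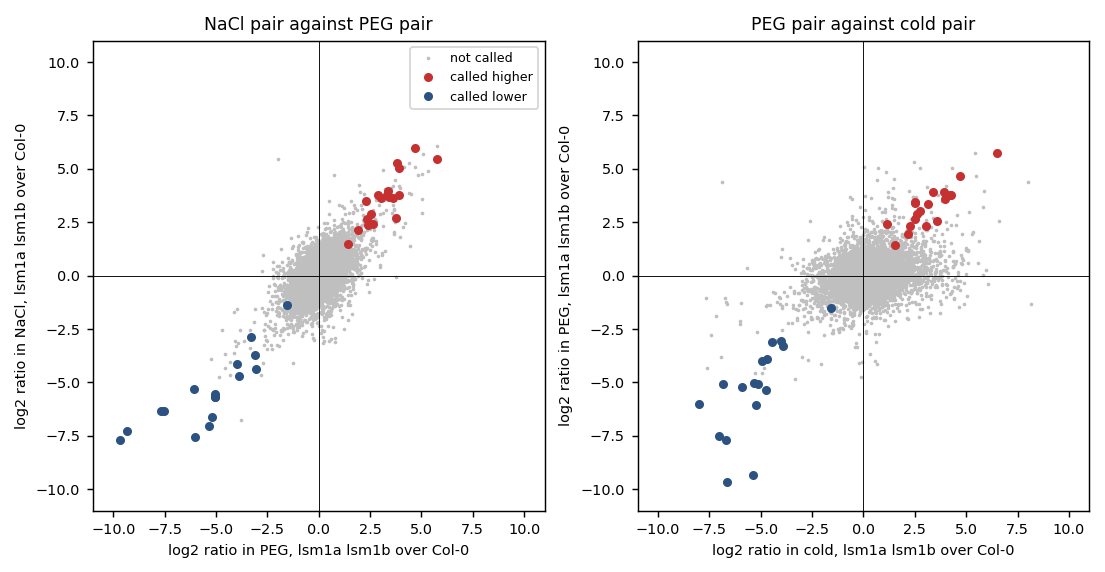
Log2 ratio of lsm1a lsm1b over Col-0 of 16927 genes in the NaCl pair (vertical) against the PEG pair (horizontal) on the left, and in the PEG pair against the cold pair on the right. Red and blue points are the 19 genes called higher and the 17 called lower. They lie along the diagonal in both panels, and the test favours genes whose pairs agree. Grey points are genes not called, whose correlation is 0.62 on the left and 0.35 on the right with the called genes included.

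Whether the genotype difference in cold departed from that on the plates was tested by a term for cold added to the fit, which left 1 residual degree of freedom. The cold difference rests on 1 library per genotype. The spread in this test comes from how far the PEG and NaCl pairs differ, moderated by edgeR toward that of other genes. The calls thus carry no replicate check within cold. The ratio was called larger in cold than on the plates for 260 genes (1.54% of those tested) and smaller for 112 (0.662%). None of the 36 genes above was among them, which the choice of genes with agreeing pairs made likely in advance. Of the 260, 238 were at least 2-fold higher in lsm1a lsm1b in cold, and 173 of these were within 2-fold on both plates. A further 20 were within 2-fold in cold and at least 2-fold lower on both plates. Of the 112, 85 were at least 2-fold lower in cold and 33 were at least 2-fold higher on both plates. Cold treatment also differed from the plate treatments in substrate, duration and light, so these cannot be told apart from the temperature.

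Late anthocyanin genes had a median ratio far below 0 on the plates and near 0 in cold. The test called 6 of 10 tested genes with a larger ratio in cold and 0 with a smaller one. Over all genes tested these shares were 1.54% and 0.662%. The medians of the 10 were -0.18 in cold, -3.34 in PEG and -2.55 in NaCl. DFR, which reduces dihydroflavonols to leucoanthocyanidins, had 14.1, 6.19 and 4.38 CPM in lsm1a lsm1b in cold, PEG and NaCl, against 14.9, 105 and 44.6 CPM in Col-0. The genotypes were close in cold and far apart on both plates (difference of log2 ratios, cold minus plates, 3.64 ± 0.41, edgeR adjusted p = 0.0126). The acyltransferase 5MAT (3.75 ± 0.48), the dioxygenase LDOX (3.36 ± 0.48), the glycosyltransferase UF3GT (3.0 ± 0.43), the transport factor TT19 (2.64 ± 0.41) and the MYB activator PAP1 (AT1G56650, 2.0 ± 0.35) gave the other calls. None of the 10 was called for genotype across the stresses by edgeR. DESeq2 called 6 lower, against 429 of all 16927 genes tested, and edgeR without the cold pair called 8 lower, against 423 of 16931. EGL3, a bHLH partner of the MYB activators, had ratios of 0.91, 0.92 and 0.51.

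Salicylic acid and defence genes had a median ratio far above 0 in cold and nearer to 0 on the plates. Of 15 tested genes, 7 were called with a larger ratio in cold and 0 with a smaller one, against 1.54% and 0.662% over all genes. The medians of the 15 were 3.10 in cold, 0.79 in PEG and 0.01 in NaCl. The salicylic acid synthesis gene ICS1 had 847, 104 and 179 counts in lsm1a lsm1b against 104, 60 and 149 counts in Col-0 (cold minus plates 2.76 ± 0.42, edgeR adjusted p = 0.0250). WRKY40 (4.96 ± 0.86), the camalexin enzyme PAD3 (4.01 ± 0.67), WRKY33 (3.87 ± 0.59), WRKY53 (3.60 ± 0.53), the salicylic acid exporter EDS5 (3.24 ± 0.36) and the immune regulator EDS1 (2.35 ± 0.37) were the others. PR5 was on the higher side in every pair (3.10, 4.15 and 5.10 in cold, PEG and NaCl) and not called in the test across the stresses (4.11 ± 0.45, edgeR adjusted p = 0.0693).

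Stress zinc fingers and touch genes followed the defence genes. Of 13 tested genes, 6 were called with a larger ratio in cold and 0 with a smaller one, against 1.54% and 0.662% over all genes. The medians of the 13 were 2.02 in cold, 0.19 in PEG and -0.85 in NaCl. ZAT10, a zinc finger repressor, had 1151, 720 and 814 counts in lsm1a lsm1b against 81, 1535 and 1784 counts in Col-0. It was the higher of its pair in cold and the lower on both plates (5.17 ± 0.33, edgeR adjusted p = 0.00354). AZF1 (5.12 ± 0.68) and the calmodulin-like CML37 (4.92 ± 0.51) differed by as much. The deadenylase genes CAF1a (5.13 ± 0.86) and CAF1b (3.20 ± 0.46), which shorten poly(A) tails upstream of the LSM1-7 ring, also had a larger ratio in cold, as had NCED3 (2.74 ± 0.35).

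**Figure D5:**
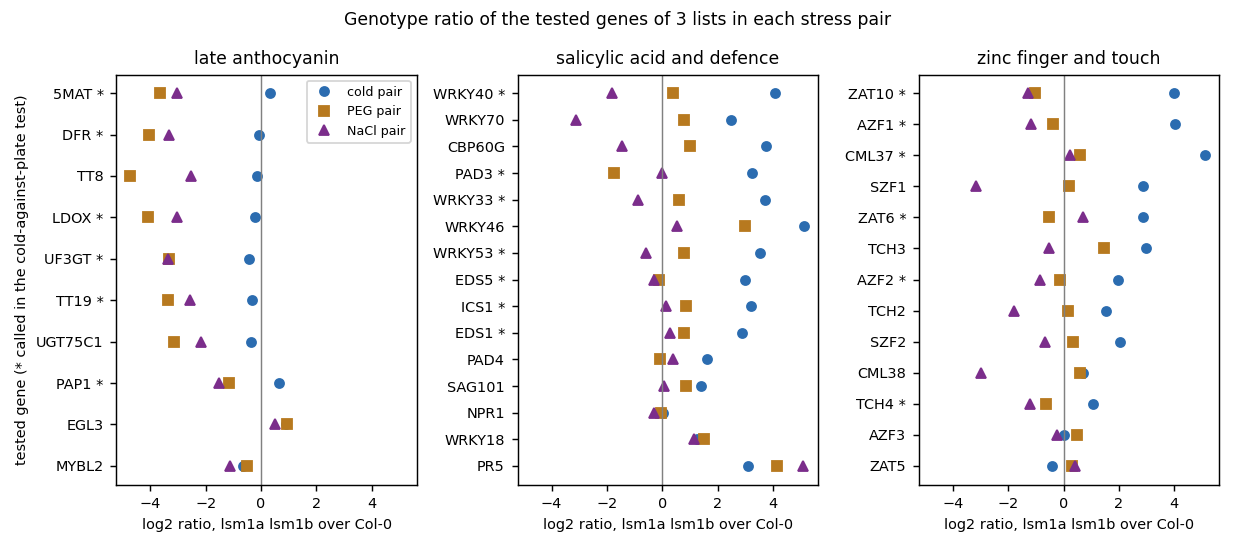
Log2 ratio of lsm1a lsm1b over Col-0 (horizontal axes) of the tested late anthocyanin genes (left), salicylic acid and defence genes (middle) and stress zinc finger and touch genes (right) in the cold (circles), PEG (squares) and NaCl (triangles) pairs, some of which overlap. An asterisk marks genes called in the test of cold against plates. The anthocyanin genes are low mainly on the plates, with medians of -3.34 in PEG and -2.55 in NaCl, and the other lists are high mainly in cold, with medians of 3.10 and 2.02.

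The 6 largest single differences between cold and plates came mostly from genes with few counts in at least 1 library. AT3G13610, an oxygenase, had 315, 51 and 99 counts in lsm1a lsm1b against 0, 137 and 94 in Col-0. GLP9, a germin-like protein, had 69, 34 and 28 counts in lsm1a lsm1b against 0, 29 and 14 in Col-0, so both genes had no count in the Col-0 cold library. In the other direction AT3G05570 had 0, 113 and 160 counts in lsm1a lsm1b against 64, 91 and 91 in Col-0. AT5G15360 had 1, 181 and 282 counts in lsm1a lsm1b against 286, 7 and 15 in Col-0, lower in cold and higher on both plates. ZW9, of the TRAF-like family, had 14, 9467 and 11115 counts in lsm1a lsm1b against 3488, 20846 and 17272 in Col-0, so its cold ratio of -7.66 compared with -1.06 in PEG and -0.78 in NaCl (edgeR adjusted p = 0.00354). AT3G57950 had 42, 11 and 13 counts in lsm1a lsm1b against 1, 27 and 20 in Col-0.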

How the data were processed

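RNA sequencing of 6 leaf samples was used, 1 library per genotype and stress. The authors deposited whole-number read counts per gene, which entered the tests unaltered. TAIR10, TopHat2 and DESeq2 are named in the submitters' processing notes. Neither the counter nor strandedness is given in the sources used here. SHY2, G6PD4, ARCK1 and AT5G45490 also overlap other annotated genes, so some of their reads may belong to those genes. The locus code identified a gene, taken from the transcript name in the cold files. In 270 rows for NaCl and 1 for PEG that name contradicted the code, which was kept. Symbols came from RefSeq (TAIR10.1) for 16777 of 16962 genes, and 185 were used by code. All 16746 tested nuclear genes with a record lay on the same chromosome there, 16581 within the same span, so upstream sequence was read from that assembly.

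Counts were scaled by TMM and tested with edgeR 4.0.16 (R 4.3.3; filterByExpr on genotype, quasi-likelihood test, two-sided, stress plus genotype, Benjamini-Hochberg adjusted p under 0.05). SE is the log2 ratio over the root of F. Pair ratios are log2 CPM differences with a prior count of 2. The fit left 2 residual degrees of freedom, with a common biological coefficient of variation of 0.236. The p-values measure the spread between stress pairs, moderated by edgeR across genes (median prior of 3.19 degrees of freedom). Nothing states that a library is a separate culture. Intervals on summed counts are Clopper-Pearson at 95% and cover counting error only, since the reads carry no molecular identifiers. Motifs were searched on both strands of the 250 bases before each start, and copies with blastn. DESeq2 1.42.0, limma-voom (limma 3.58.1), other scalings and filters, no block and each pair left out were alternatives. The functions were tested on simulated counts.

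The members and gene lists were chosen with earlier results of these data known. The text names LSM1A and LSM1B, the called genes with the same sign in all pairs (12 highest, 12 lowest and 5 lowest adjusted p per direction), up to 3 called members per list and the 6 largest differences between cold and plates. The other called genes, the aquaporins, list members below the threshold, NCED3, CAF1a, CAF1b and the genes of the 1 Mb windows were named after their values were seen. Of the called genes, 1 is counted in the totals and not reported here.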

Additional observations from a re-analysis of the deposited data

Results flagged for a closer look

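The following differences of the genotype ratio between cold and plate stresses (cold minus plates, log2, edgeR's test of the difference) stood out. They were 12.83 for AT3G13610, -12.22 for AT5G15360, -10.17 for AT3G05570, 9.40 for GLP9, -6.84 for ZW9 and 6.46 for AT3G57950, with edgeR adjusted p from 0.00354 to 0.0259. Where a library had 0 or 1 counts these values depend on the prior count of the fit. Within the gene lists they were 3.75 for 5MAT and 3.64 for DFR among anthocyanin genes, 4.96 for WRKY40 and 4.01 for PAD3 among defence genes, and 5.17 for ZAT10 and 5.12 for AZF1 among zinc finger and touch genes. LSM1B had a log2 ratio of 1.01 in NaCl, opposite to cold and PEG, in the library labelled lsm1a lsm1b, and that difference was not tested.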

How the results depend on the processing

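With DESeq2 839 genes were called (410 higher, 429 lower) and with limma-voom 71 (43 higher, 28 lower). With a mean of at least 5 CPM there were 15 (7 higher, 8 lower) and without the stress block 5 (1 higher, 4 lower). Leaving out a pair gave 0 to 826 calls, 0 to 403 higher and 0 to 423 lower: 826 without the cold pair and 0 without PEG or without NaCl, where 1547 and 1430 genes had an unadjusted p under 0.05. With DESeq2 size factors, total counts, no filter or no organelle genes the count was 32 to 36. The 36 genes kept their sign in all 388 values these 11 alternatives gave, and passed the threshold in 267. Called genes within the lists were 6, against 64 with DESeq2, 0 with at least 5 CPM, 1 without the block and 0 to 78 with a pair left out. All 17 lower genes were on chromosomes 1 and 5, against 66.7% with DESeq2 and 63.8% without the cold pair, the other alternatives giving 92.9% or more where any gene was called. LSM1B ranged from -1.37 without the NaCl pair to 0.0598, a reversal, without the cold pair. LSM1A kept its sign throughout but had an adjusted p of 0.0507 with total counts, 0.0572 with at least 5 CPM, 0.106 without the block, 0.206 without PEG and 0.286 without NaCl. The test of cold against plates gave 372 calls, against 585 with total counts and 332 to 452 otherwise, and AT3G57950 did not pass with DESeq2 (adjusted p = 0.0751). With 1 residual degree of freedom no pair could be left out of it. The causes were not tested. No paired analysis by replicate number was possible because each genotype and stress had 1 library, and the stress block already pairs them. Genes with few counts, such as AT5G49640 with 3 counts over the lsm1a lsm1b libraries, have ratios known only to their counting interval.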
